A study of Mus musculus with 14 samples.

Results

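The genes described here encode Fc receptors, which bind the constant part of antibodies, the adaptors and the kinase through which they signal, and TREM2, a receptor of another kind that uses one of these adaptors. They were the 8 mouse genes Fcgr1, Fcgr2b, Fcgr3, Fcgr4, Fcer1g, Tyrobp, Syk and Trem2, of 21774 protein-coding genes in the RefSeq annotation of GRCm38. They were chosen by name, with earlier results of these data known, and peaks were assigned to them by position alone. A transcription factor (TF) peak was assigned to a gene when it overlapped the gene span extended by 15 kb on each side. In totals a peak in overlapping windows was counted once, while counts by gene include it at each gene. By this rule 148 of the 158488 peaks belonged to the 8 genes, and merging of overlapping peaks from different lists left 94 of 117293 regions.

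The binding sites had been mapped by chromatin immunoprecipitation and sequencing (ChIP-seq) in 5 sequential populations grown in culture from 1 mouse embryonic stem cell line of strain 129 with a GFP reporter at Brachyury. Mesoderm (MES) was positive for Bry-GFP and negative for Flk1, hemangioblasts (HB) were positive for both, hemogenic endothelium (HE) was Tie2+ Kit+ CD41-, hematopoietic progenitors (HP) were CD41+, and macrophages (MAC) were CD11b+ cells grown from the CD41+ cells. There were 14 peak lists, which were C/EBPβ at all 5 stages, ELK4 in MES, GATA2 in HB, PU.1 (encoded by Spi1), GATA1, GATA2, GFI1B and RUNX1 in HP, and PU.1 and RUNX1 in MAC. Each group had a single list, in some of which technical replicates had been merged, so the spread between replicates is unknown and no test was made. Peak thresholds had been set by eye for each list, so the length of a list does not measure the amount of binding, and a peak that is missing from a list may lie below its threshold. The study's quality control gives no enrichment by quantitative PCR for C/EBPβ in MES and HB, GATA2 in HB and RUNX1 in MAC. It states that such samples were sequenced all the same, because the antibodies were trusted. The 95% intervals given with shares of peaks are exact binomial ones (Clopper-Pearson) and allow for counting error alone. The lists hold no expression values, so the population labels could not be checked against marker genes, and no list says whether a gene was transcribed.

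In the best known form of this pathway, an activating Fc receptor or a related receptor sits in the membrane beside a small adaptor whose tail carries an immunoreceptor tyrosine-based activation motif (ITAM). Clustering of the receptor leads Src family kinases to phosphorylate the ITAM, the kinase SYK docks on it, and phagocytosis and cytokine production follow in macrophages. The inhibitory receptor FcγRIIb carries an inhibitory motif instead, which recruits phosphatases and restrains the same response.

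The loci lay on 5 chromosomes. On GRCm38 the activating receptor genes were Fcgr1 (gene 14129, chr3:96282909-96293969, minus strand), Fcgr3 (gene 14131, chr1:171051169-171065915, minus strand) and Fcgr4 (gene 246256, chr1:171018926-171029761, plus strand). The inhibitory receptor gene Fcgr2b (gene 14130) was at chr1:170960558-170976071 on the minus strand, and Trem2 (gene 83433), which encodes a lipid-binding receptor of phagocytes that signals through TYROBP, was at chr17:48346401-48352276 on the plus strand. The adaptor genes were Fcer1g (gene 14127, FcRγ, chr1:171229572-171234349, minus strand) and Tyrobp (gene 22177, DAP12, chr7:30413782-30417582, plus strand). The kinase gene Syk (gene 20963) was at chr13:52582610-52648792 on the plus strand. The windows of Fcgr4 and Fcgr3 overlapped, which left 7 separate windows with 364 kb in all.

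The sequences below are some of the stretches in which PU.1 peaks were centred in progenitors, before macrophages were formed. Each is 121 bases of the RefSeq GRCm38 sequence, printed 5′ to 3′ on the strand of its gene and placed as near to the centre of the HP PU.1 peak as exons of coding transcripts allowed. Capitals mark GAGGAA, the core of the PU.1 consensus, or TTCCTC, the same core on the other strand. The first 3 come from promoters, and the others from upstream of Fcgr4, an intron of Trem2 and upstream of Syk.
Fcer1g promoter, chr1:171234643-171234763, minus strand: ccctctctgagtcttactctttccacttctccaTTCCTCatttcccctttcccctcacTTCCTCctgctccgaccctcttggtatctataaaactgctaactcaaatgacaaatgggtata
Fcgr1 promoter, chr3:96293970-96294090, minus strand: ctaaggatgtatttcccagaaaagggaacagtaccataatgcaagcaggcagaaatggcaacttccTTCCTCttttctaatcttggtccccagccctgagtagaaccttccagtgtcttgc
Fcgr2b promoter, chr1:170976072-170976192, minus strand: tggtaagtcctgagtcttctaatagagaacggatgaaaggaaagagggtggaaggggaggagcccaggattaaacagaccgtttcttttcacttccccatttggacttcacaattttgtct
Fcgr4 upstream, chr1:171017935-171018055, plus strand: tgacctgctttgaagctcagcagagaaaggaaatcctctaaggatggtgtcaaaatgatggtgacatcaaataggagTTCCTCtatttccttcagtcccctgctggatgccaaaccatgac
Trem2 intron, chr17:48347434-48347554, plus strand: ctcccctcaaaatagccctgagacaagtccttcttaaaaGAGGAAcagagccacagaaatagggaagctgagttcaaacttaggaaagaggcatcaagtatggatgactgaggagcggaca
Syk upstream, chr13:52572622-52572742, plus strand: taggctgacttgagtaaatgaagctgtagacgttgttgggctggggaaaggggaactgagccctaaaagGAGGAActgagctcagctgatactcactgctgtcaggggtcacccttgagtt
The Fcer1g stretch held 2 copies of the core, Fcgr1, Fcgr4, Trem2 and Syk each held 1, and Fcgr2b held none.

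To ask at which mapped stages these loci held peaks, peaks were counted at each gene in each list. PU.1 had a list in HP and MAC alone, so the stage at which it first occupied a locus could not be dated. PU.1 is an ETS family factor required for the myeloid lineage, and C/EBPβ is a basic leucine zipper factor of macrophages. In MAC, PU.1 peaks were present at 8 of 8 loci and C/EBPβ peaks at 8 of 8, while the same rule called 77.6% and 71.2% of all protein-coding genes in these lists, so that presence alone says little in MAC. In HP, PU.1 peaks were present at 7 of 8 loci, where the rule called 34.8% of coding genes, and Fcgr3 was the exception. The other lists reached few of the loci. C/EBPβ peaks were found at 1 locus in MES (background 5.75%), 2 in HB (3.7%), 2 in HE (0.579%) and 2 in HP (13.1%), and these were Fcgr4 and Fcgr3 alone. The windows of these genes overlap and share peaks, so they are not separate loci here. In HB the sole Fcgr3 peak was also counted at Fcgr4. ELK4 in MES was found at 1 (4.1%), GATA1 in HP at 1 (1.54%) and GFI1B in HP at 2 (10.5%). GATA2 in HB (0.335%), GATA2 in HP (2.91%), RUNX1 in HP (6.81%) and RUNX1 in MAC (0.404%) had no peak at any of the 8 loci, in lists that reached few genes of any kind.

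**Figure D1:**
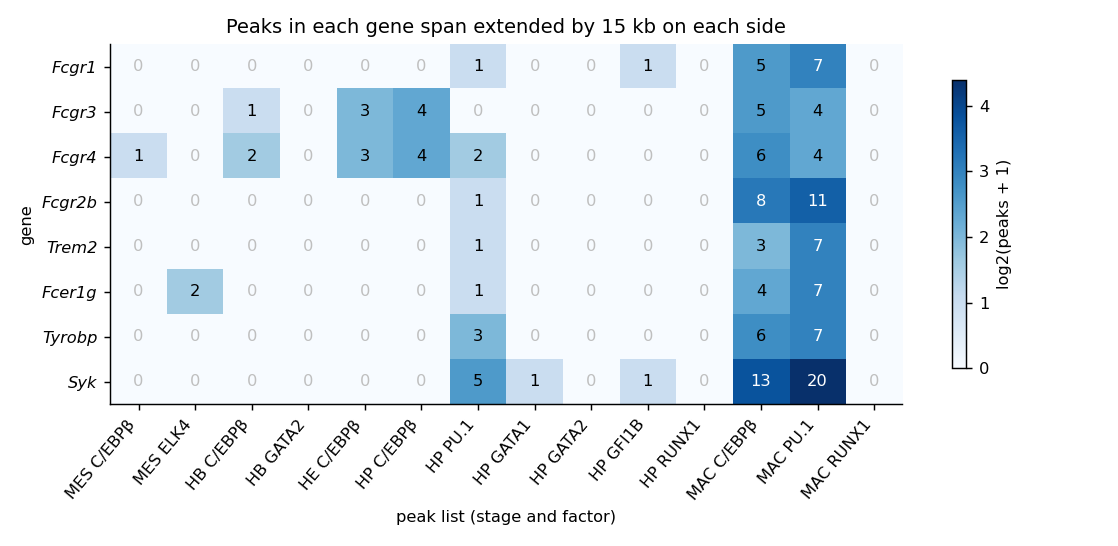
Number of peaks in each list (columns) within the span of each gene extended by 15 kb on each side (rows), with colour on a log2(peaks + 1) scale. MAC PU.1 and MAC C/EBPβ fill every row, HP PU.1 fills every row but Fcgr3, and the earlier C/EBPβ lists are confined to Fcgr3 and Fcgr4. A peak in both of these windows is counted in both rows.

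Of the 148 peaks, 131 came from 3 lists, namely 67 from MAC PU.1, 50 from MAC C/EBPβ and 14 from HP PU.1. Per 10 kb of window there were 1.84 MAC PU.1 peaks at the 8 genes against 0.471 in the windows of all coding genes. For MAC C/EBPβ the values were 1.37 and 0.308, and for HP PU.1 they were 0.384 and 0.0617. The median gene of the 8 had 7 MAC PU.1 peaks, against 3 for all coding genes, 5.5 MAC C/EBPβ peaks against 2, and 1 HP PU.1 peak against 0. The windows themselves were not longer, with a median of 40.9 kb for the 8 genes and 47.2 kb for all coding genes.

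**Figure D2:**
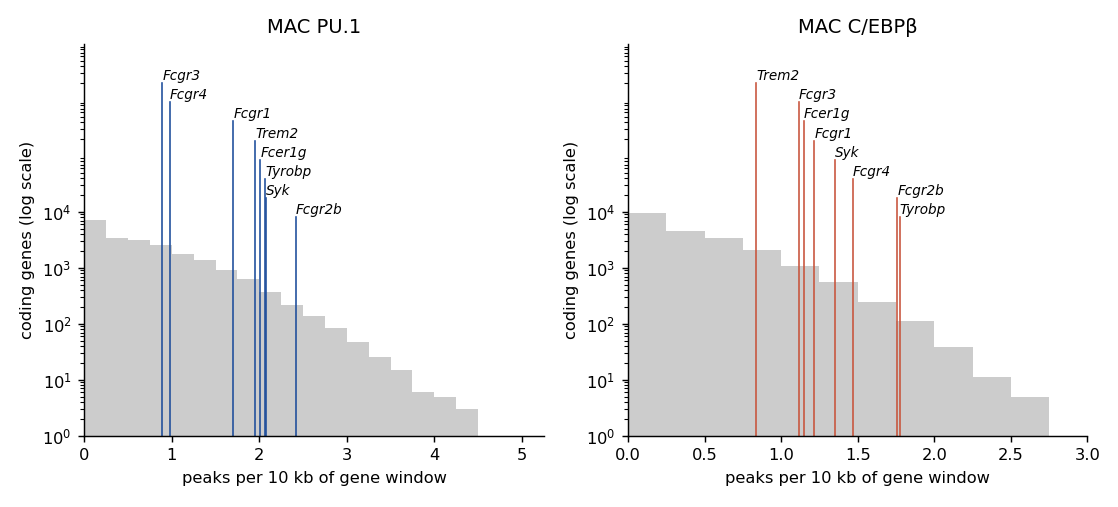
Peaks per 10 kb of gene window (x axis) for all 21774 coding genes, in grey, with the number of genes on a log axis, for MAC PU.1 (left) and MAC C/EBPβ (right). Coloured lines mark the 8 genes, of which Fcgr3 and Fcgr4 are lowest for PU.1 at 0.894 and 0.980, and Trem2 is lowest for C/EBPβ at 0.836.

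Among the activating receptors, Fcgr1, which encodes the high-affinity IgG receptor CD64, had 7 MAC PU.1 peaks, 5 MAC C/EBPβ peaks and 1 HP PU.1 peak. Its HP PU.1 peak was centred 52 bp upstream of the start site, directly on the GAGGAA core printed above. It was the sole HP PU.1 peak of the 8 loci that did not overlap a MAC PU.1 peak. In MAC a C/EBPβ peak covered the start site instead, centred 21 bp downstream of it, and the nearest MAC PU.1 peak was centred 445 bp downstream, 497 bp away from the HP centre. The other Fcgr1 peaks in MAC lay between -11.2 kb and 23.8 kb from the start site, and the farthest downstream one was 512 bp from the start of the histone gene H2bc18.

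Fcgr4, which encodes a mouse receptor for IgG2a and IgG2b, had 4 MAC PU.1 peaks, 6 MAC C/EBPβ peaks and 2 HP PU.1 peaks. The HP peaks were centred 931 bp and 12411 bp upstream of the start site. At both positions MAC PU.1 and MAC C/EBPβ peaks overlapped the HP peak, so that these 2 regions carried PU.1 in HP and both factors in MAC. At the start site itself PU.1 was found in MAC alone, centred 18 bp upstream, and this peak held the full consensus GAGGAAGT near its centre. The MAC C/EBPβ peak nearest to the start site was the one centred 971 bp upstream.

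Fcgr3 encodes the low-affinity IgG receptor CD16 and had 4 MAC PU.1 peaks, 5 MAC C/EBPβ peaks and no HP PU.1 peak. The nearest HP PU.1 peak was 41399 bp from its start site and belonged to Fcgr4. In MAC, PU.1 was centred 12 bp and C/EBPβ 22 bp upstream of a curated start site. Of its 4 MAC PU.1 peaks, 3 overlapped a C/EBPβ peak. Reads had been kept only where they aligned to a unique position, and 32.4% of the 50-base words in the Fcgr3 window occurred again within 50 kb of it, against 0.432% for Fcgr4, 8.96% for Fcgr1 and 0.203% for Syk. The part of these repeats in the count of Fcgr3 was not tested.

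Fcgr2b, the inhibitory receptor, was the most densely occupied locus for PU.1 in MAC, with 11 peaks or 2.42 per 10 kb, and it had 8 MAC C/EBPβ peaks. Some of these peaks lay nearer to the start of the gene Gm39701 than to that of Fcgr2b. The farthest of them held PU.1 and was centred 25.3 kb downstream of the Fcgr2b start site. The Fcgr2b promoter was occupied by PU.1 in HP, centred 12 bp upstream of the start site, and in MAC, centred 33 bp upstream. The MAC C/EBPβ peak nearest to the start site was 1187 bp upstream and did not overlap the PU.1 peak. The intron region at chr1:170972911-170973354, 2939 bp downstream of the start site, was occupied by both factors in MAC and held 2 copies of GAGGAAGT.

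Trem2 had 7 MAC PU.1 peaks, 3 MAC C/EBPβ peaks and 1 HP PU.1 peak. The HP peak lay in an intron, 1093 bp downstream of the start site, at the sequence printed above, and a MAC PU.1 peak overlapped it. At the start site both factors were found in MAC and neither in HP, with PU.1 centred 13 bp upstream and C/EBPβ 50 bp downstream. The HP peak of Trem2 thus did not cover the start site. Some of its MAC peaks lay nearer to the neighbouring gene Treml1 than to Trem2.

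Fcer1g, whose product is the ITAM adaptor of the activating Fc receptors, had 7 MAC PU.1 peaks, 4 MAC C/EBPβ peaks and 1 HP PU.1 peak. The HP PU.1 peak was centred 354 bp upstream of the start site and the MAC PU.1 peak 360 bp upstream. The nearest MAC C/EBPβ peak was 1118 bp downstream, in the gene. It held 1 of the 3 C/EBP consensus sequences found in the 50 MAC C/EBPβ peaks. The window also contained ELK4 peaks in MES, none of them nearest to Fcer1g. One was in a region centred 114 bp from the start site of Tomm40l, a mitochondrial import gene, and a MAC PU.1 peak overlapped it.

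Tyrobp, which encodes the ITAM adaptor of TREM2 and many other myeloid receptors, had 7 MAC PU.1 peaks, 6 MAC C/EBPβ peaks and 3 HP PU.1 peaks in the shortest of the windows (33.8 kb). The HP peak of its own promoter was centred 4 bp upstream of the start site, and the MAC peak 17 bp upstream. The other 2 HP peaks were at the promoters of the next genes. They lay 206 bp from the start of Hcst, which encodes the related adaptor DAP10, and 107 bp from that of Nfkbid, which encodes a nuclear IκB protein. All 3 of these HP PU.1 peaks held the full consensus GAGGAAGT, and all 3 overlapped a MAC PU.1 peak. The MAC C/EBPβ peak nearest to the Tyrobp start site was 918 bp upstream.

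Syk had the most peaks of the 8 genes, with 20 for MAC PU.1, 13 for MAC C/EBPβ and 5 for HP PU.1, in the longest window (96.2 kb). Per 10 kb its MAC PU.1 value was 2.08, next to 2.07 for Tyrobp and 2.01 for Fcer1g. In HP, PU.1 was found at both curated start sites, centred 333 bp upstream of the first and 3 bp from the second, at 13448 bp downstream of the first. The remaining HP peaks were at -10755 bp, -7215 bp and 31745 bp from the first start site. All 5 overlapped a MAC PU.1 peak, and those at 13448 bp and 31745 bp overlapped a MAC C/EBPβ peak too. The region at 31745 bp, in an intron, is shown because it is the one HP PU.1 peak of the 8 loci with a C/EBP consensus. It is printed with that consensus, on the other strand TTGTGCAA, in capitals.
Syk intron, chr13:52615161-52615281, plus strand: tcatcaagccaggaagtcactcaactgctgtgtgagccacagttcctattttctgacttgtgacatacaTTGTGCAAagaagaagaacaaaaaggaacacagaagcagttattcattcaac
The consensus lay 12 bp from the centre of the MAC C/EBPβ peak.

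**Figure D3:**
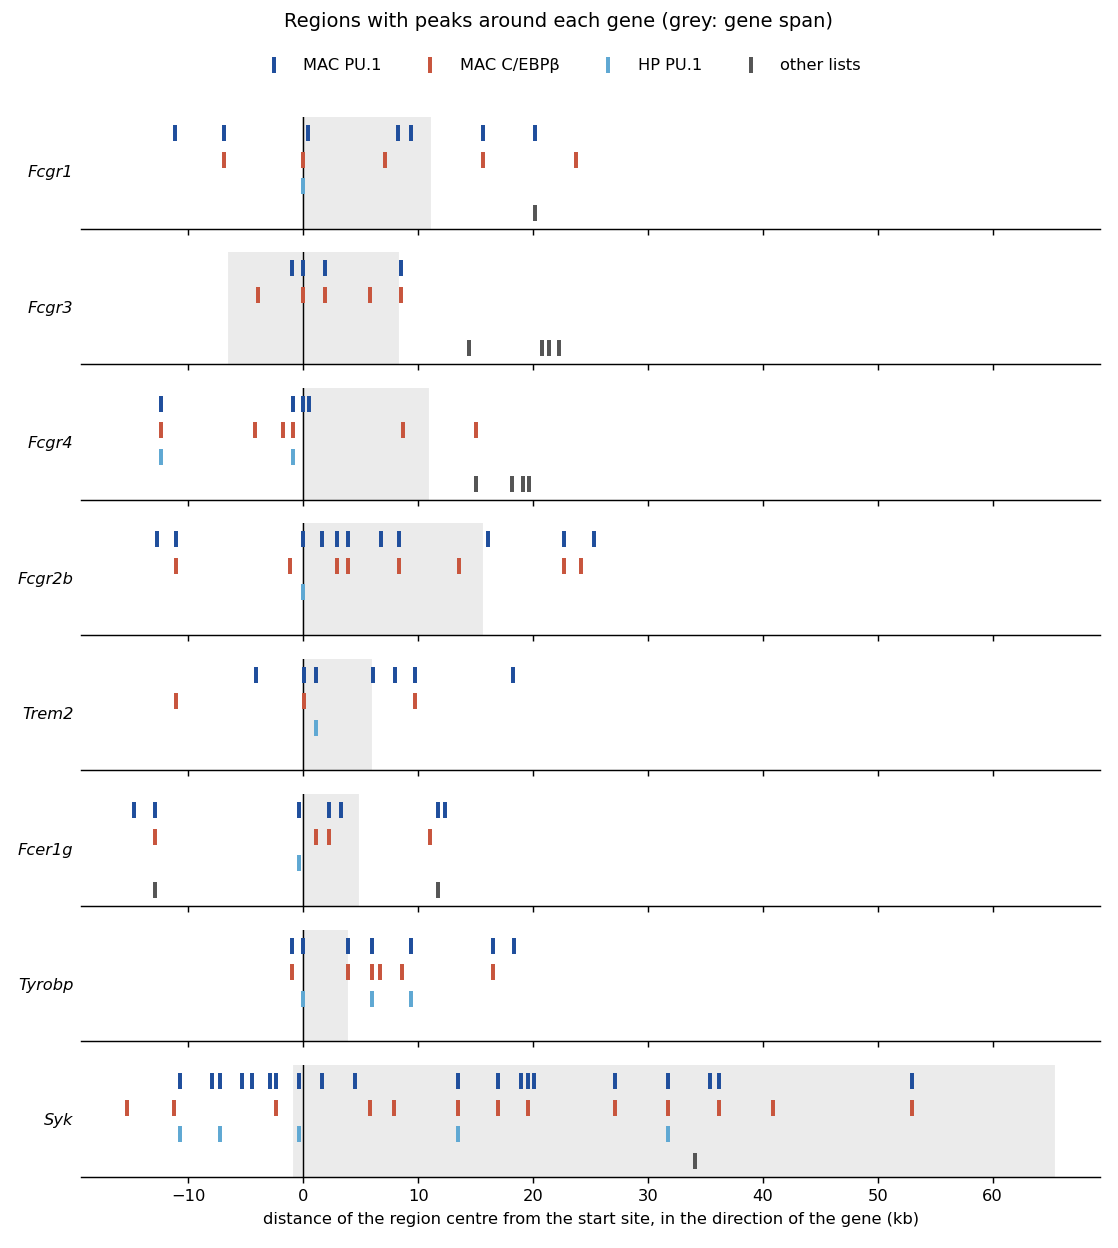
Centres of the regions with peaks around each gene, in kb from its start site and in the direction of transcription, with 1 row of ticks each for MAC PU.1, MAC C/EBPβ, HP PU.1 and all other lists. Grey bands are gene spans. HP PU.1 ticks stand at or beside the start site of 7 genes, and all but the one at Fcgr1 stand under a MAC PU.1 tick.

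To ask whether the HP PU.1 peaks were near promoters, the distance from each peak centre to the nearest curated start site was taken. An HP PU.1 peak was centred within 2 kb of a start site at 7 of 8 genes, where 9.67% of 21000 coding genes with a curated start site met the same rule. In MAC all 8 genes met it for PU.1 and for C/EBPβ, with backgrounds of 51.4% and 37.7%. Within 50 bp, a distance chosen after the values were seen, a MAC PU.1 peak was centred at 6 of 8 genes (10.6% of the 21000) and a MAC C/EBPβ peak at 3 of 8 (4.95%), namely Fcgr1, Fcgr3 and Trem2. Of the 14 HP PU.1 peaks, 10 (71.4%) lay within 2 kb of a start site of some coding gene, against 24 of 67 (35.8%) MAC PU.1 peaks and 18 of 50 (36.0%) MAC C/EBPβ peaks at the same loci. In the rest of the lists, which include peaks far from any gene, the shares were 20.8%, 20.6% and 18.6%.

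Most progenitor PU.1 sites were found again in macrophages at nearly the same base. Of the 14 HP PU.1 peaks, 13 (92.9%, interval 66.1% to 99.8%) overlapped a MAC PU.1 peak, and in the rest of the HP list the share was 97.0%. The median distance from the HP centre to the nearest MAC centre was 12.5 bp at the 8 loci and 13 bp elsewhere. The interval for the 8 loci includes the share in the rest of the list. In the other direction, 13 of 67 MAC PU.1 peaks (19.4%, 10.8% to 30.9%) already had an HP PU.1 peak, against 12.8% of the rest of the MAC list. The interval includes the value of the rest of the list. Of the 14 HP PU.1 sites, 8 carried PU.1 alone in MAC, 5 carried PU.1 and C/EBPβ, and the site 52 bp upstream of Fcgr1 carried C/EBPβ alone, with a MAC PU.1 peak nearby at 445 bp downstream of the start site.

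In MAC the factors shared 28 of the regions. Of the 94 regions, 39 had PU.1 alone, 22 had C/EBPβ alone and 5 had neither in MAC. As shares of regions these were 29.8% with both, 41.5% with PU.1 alone and 23.4% with C/EBPβ alone, against 20.1%, 50.4% and 27.1% of all regions. Seen from the lists, 28 of 67 MAC PU.1 peaks (41.8%, 29.8% to 54.5%) overlapped a C/EBPβ peak, while the value in the rest of the list was 28.5%. In turn 28 of 50 MAC C/EBPβ peaks (56.0%, 41.3% to 70.0%) overlapped a PU.1 peak, against 42.4% in the rest. Neighbouring peaks are not independent, so the intervals are too narrow by an unknown amount. By gene the PU.1 peaks shared with C/EBPβ were 2 of 7 at Fcgr1, 2 of 7 at Fcer1g and 2 of 7 at Trem2, and rose to 4 of 7 at Tyrobp, 5 of 11 at Fcgr2b, 8 of 20 at Syk, 2 of 4 at Fcgr4 and 3 of 4 at Fcgr3.

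**Figure D4:**
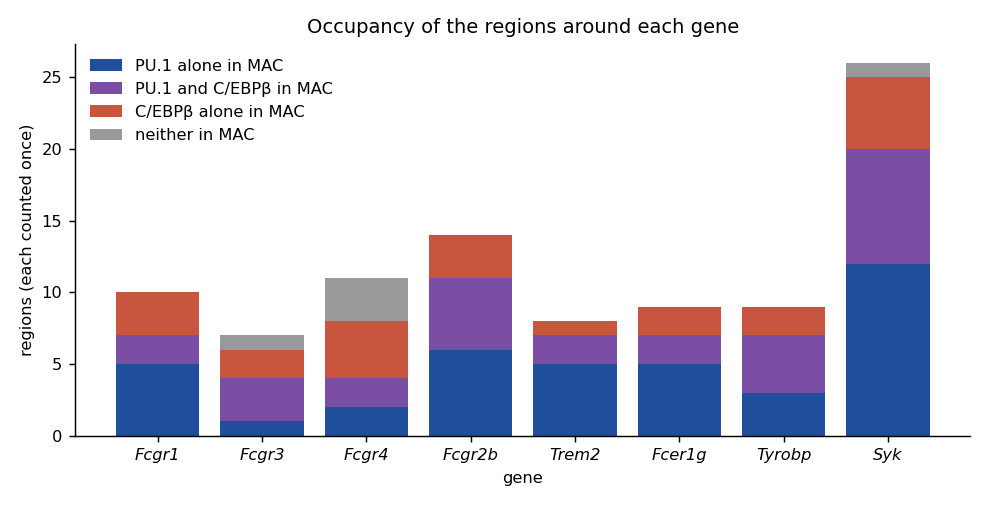
Number of regions at each gene, each region counted once, split by which factor was found there in MAC. Syk has 26 regions and Fcgr3 has 7, and the grey blocks, with neither factor in MAC, are 3 regions at Fcgr4, 1 at Fcgr3 and 1 at Syk. The 3 grey regions at Fcgr4 also lie in the Fcgr3 window and were counted at Fcgr4 only.

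The PU.1 consensus GAGGAAGT was found, on either strand, in 5 of 14 HP PU.1 peaks (35.7%) at the 8 loci, against 42.1% of the whole HP list and 2.93% of windows of equal length 2 kb away from the peaks of that list. Of the 28 such windows beside the 14 peaks, 1 held it. These 5 peaks were at Tyrobp, Hcst, Nfkbid, Fcer1g and the first start site of Syk. The shorter core GAGGAA was in 12 of 14 HP peaks (85.7%), against 76.1% of the list and 33.2% of its flanks. It was also in 16 of the 28 windows beside these 14 peaks (57.1%), so that this short word was common around the loci. It was lacking only in the peaks at the Fcgr2b promoter and at -7215 bp of Syk. Where the core was present its nearest copy lay a median of 10.5 bp and at most 52 bp from the peak centre. In MAC PU.1 peaks the consensus was in 11 of 67 (16.4%, 8.49% to 27.5%), against 24.4% of the list and 2.81% of the flanks of the whole list. Of the 134 windows beside these 67 peaks, 6 held it (4.48%). The core was in 59.7% of the 67 peaks, against 65.3% of the list and 41.0% of the 134 windows. For C/EBPβ the sequences TTGCACAA, TTGCATAA, TTGCGCAA and TTGCGTAA were counted together. They were found in 3 of 50 MAC C/EBPβ peaks (6.0%, 1.25% to 16.5%), at Fcer1g, Syk and Trem2, against 14.9% of the list and 2.38% of the flanks of the whole list. Of the 100 windows beside these 50 peaks, 0 held one of them. The looser TTGCNNAA was in 36.0% of the 50 peaks, against 41.9% of the list and 21.0% of the 100 windows. Each exact consensus was in a smaller share of MAC peaks here than in the whole list, but both intervals include the share of the list.

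The C/EBPβ peaks before MAC lay at tRNA genes. MES, HB, HE and HP C/EBPβ together gave 12 peaks in the windows, and 12 of 12 lay within 500 bp of a tRNA gene between Fcgr4 and Fcgr3. Of the 50 MAC C/EBPβ peaks 1 did. In the rest of these lists the shares of peaks at a tRNA gene were 0.850% for MES, 9.40% for HB, 80.5% for HE, 6.86% for HP and 0.171% for MAC, so that in HE most peaks of the whole list lay at tRNA genes. The HE list contributed 4 of its 132 peaks (3.03%) to these windows. Of the 5 HP C/EBPβ peaks, 1 (20.0%) was found again in MAC, against 91.6% of the rest of the HP C/EBPβ list. The one that persisted lay at the asparagine tRNA gene n-TNgtt6 (chr1:171033942-171034015, minus strand), 15059 bp downstream of the Fcgr4 start site, and it was the sole region of the 94 found in 5 lists. It is printed because it is the most often called site of the 8 loci, and neither TTGCNNAA nor an exact C/EBP consensus occurs in the stretch.
n-TNgtt6 site, chr1:171033925-171034045, plus strand: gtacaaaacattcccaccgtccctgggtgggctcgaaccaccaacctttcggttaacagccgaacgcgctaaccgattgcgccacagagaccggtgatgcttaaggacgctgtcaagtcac
Of the 12 peaks, a single one, from HP at chr1:171037836-171038235, contained an exact C/EBP consensus.

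The Fcgr4 and Fcgr3 windows held 18 tRNA genes, of which 5 had a C/EBPβ peak in at least 1 list and 13 had none. The 2 sets differed in how far their sequence was unique. Around the 5 with peaks at most 8.26% of the 50-base words occurred again nearby, and around the 13 without peaks at least 65.8% did. Reads without a unique position had been removed, and the part this played in the absence of peaks was not tested. No PU.1 peak lay at any of the 18 tRNA genes.

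**Figure D5:**
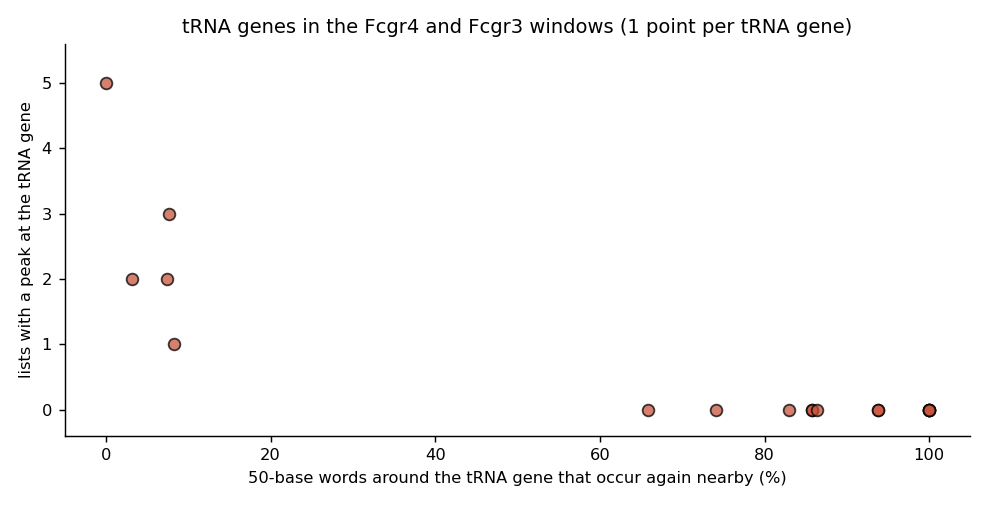
Each point is 1 of the 18 tRNA genes in the Fcgr4 and Fcgr3 windows, with the share of 50-base words around it that occur again nearby (x axis, percent) and the number of lists with a peak there (y axis). The 5 genes with peaks are at 8.26% or less, and the 13 without are at 65.8% or more.

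Peaks of the other HP factors were rare. GATA1 and GFI1B, which act in erythroid cells and megakaryocytes, shared 1 site in a Syk intron at chr13:52617306-52617709, and no PU.1 or C/EBPβ peak of any stage overlapped it. It was the sole region of Syk with neither factor in MAC. Its central sequence is shown with GATA, or TATC for the other strand, in capitals.
Syk GATA1 and GFI1B site, chr13:52617447-52617567, plus strand: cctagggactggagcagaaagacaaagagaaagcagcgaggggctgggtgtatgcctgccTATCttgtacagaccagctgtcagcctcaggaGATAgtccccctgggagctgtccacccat
Both strands held the 4-letter core once, but the longer AGATAAC or AGATAAG was absent from the peak. The second GFI1B peak, at chr3:96273630-96274029, lay 3′ of Fcgr1, nearer to H2bc18, and overlapped a MAC PU.1 peak.

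To place the 8 genes in their pathway, 5 lists of related genes were counted by the same rule, which called 34.8% of all coding genes for HP PU.1 and 77.6% for MAC PU.1. The MAC counts below are to be read against that high share. Members of the kinase and adaptor list, which act around SYK in the cascade, had a PU.1 peak in HP at 14 of 14 genes and in MAC at 14 of 14, with a median of 10.5 MAC PU.1 peaks. By count the most peaks were at Plcg2, the phospholipase activated by SYK, with 20 for MAC PU.1 and 9 for HP PU.1 in a window of 167 kb. Genes with shorter windows could be denser, such as Pik3cd, with 19 MAC PU.1 peaks in 83.4 kb. Hcst shares its peaks with Tyrobp and was counted in this list as well. The inhibitors of the pathway had HP PU.1 peaks at 6 of 9 genes (34.8% of all coding genes) and MAC PU.1 peaks at 9 of 9 (77.6%), with a median of 9. By count Inpp5d, which encodes the phosphatase SHIP1, had the most, with 24 in MAC and 6 in HP. This rank does not allow for window length, which was 130 kb for Inpp5d.

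The remaining lists held further receptors and the ITAM genes of lymphocytes. Of the 11 further myeloid receptors that couple to ITAM adaptors, 4 had an HP PU.1 peak, a share near the 34.8% of all coding genes, 10 had a MAC PU.1 peak (77.6% of all coding genes) and 9 a MAC C/EBPβ peak (71.2%), with a median of 4 MAC PU.1 peaks. Trem3 had the most in MAC, with 7, and Sirpb1a had none. Other genes that bind Fc or resemble Fc receptors had HP PU.1 peaks at 5 of 10 genes (34.8%) and MAC PU.1 peaks at 10 of 10 (77.6%), again with a median of 4, and Fcrla and Fcrl5 had the most with 11 each. The ITAM genes of lymphocytes had HP PU.1 peaks at 4 of 7 (34.8%) and MAC PU.1 peaks at 7 of 7 (77.6%), with a median of 3, the value of all coding genes, and Cd247, the ζ chain of the T cell receptor, had the most with 13. These lists differ in window length. Per 10 kb the median gene had 1.98 MAC PU.1 peaks among the 8 genes, 1.84 among the inhibitors, 1.42 among the kinases and adaptors, 0.969 among the further receptors, 0.890 among the other Fc-binding genes, 0.850 among the lymphocyte genes and 0.533 among all coding genes. For HP PU.1 the 8 genes did not rank first, with 0.313 among the kinases and adaptors, 0.283 among the 8 and 0.269 among the inhibitors. The HP PU.1 value was 0.165 among the lymphocyte genes, 0.0527 among the other Fc-binding genes and 0 among the further receptors and all coding genes.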

How the data were processed

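Peak lists of 14 ChIP-seq experiments, 1 per factor and stage, were used as deposited by the authors. Each line gives the start and end of a peak on a chromosome, with no height, score or p-value, and every peak was 400 bp wide. According to the study's methods, reads were trimmed with CutAdapt, aligned to mm10 (GRCm38) with Bowtie, kept where the position was unique and freed of duplicates with Picard. Peaks were called with MACS at thresholds judged by eye and refined with polyPeak. Versions are not given in the sources used here. HE cells were few and were processed with carrier mRNA and histone 2B. Technical replicates had been merged in the C/EBPβ lists of MES, HE and HP, in HB GATA2 and in MAC RUNX1. Sequencing depth was not used.

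Groups were taken from the sample labels. Gene spans, start sites and tRNA genes came from RefSeq GRCm38, and curated transcripts defined the start sites. Overlap meant at least 1 bp. The genes and the 5 related lists were chosen with earlier results of these data known. Genes named are the 8 genes, genes under or near their peaks, and those of each related list with the most MAC PU.1 peaks by count or with none. A gene with a dense but short window was named as well. In the related lists 1 symbol had no match. Consensus letters were looked for on either strand of whole peaks and in windows 2 kb to each side. In the PU.1 list of HP, 1 mitochondrial peak was left out of that search. A 50-base word was called repeated when it occurred again, on either strand, within 50 kb of the window. No group had a replicate list, so counts and shares are given with no test. Alternatives were the flank, the overlap, the distance to other start sites and the consensus letters, and removal of peaks at tRNA genes and of the Syk window was added after the data were seen. Calculations used Python 3.11.15, NumPy 2.4.6, pandas 2.3.3, SciPy 1.17.1 and Matplotlib 3.10.9, and counting and merging were tested on simulated data.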

Additional observations from a re-analysis of the deposited data

How the results depend on the processing

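PU.1 and C/EBPβ in MAC were found at 8 of 8 loci under each alternative window, overlap and assignment tried. With the 15 kb flank the rule already called 77.6% and 71.2% of all coding genes. The share of coding genes was taken for that flank alone, so locus counts under the alternatives are given without a background. HP PU.1 was at 5 loci with the gene span alone and at 8 with a flank of 50 kb, which takes Fcgr3 in, and at 7 otherwise. Its background of 34.8% of coding genes holds for 15 kb alone, so the 5 and the 8 have no share to be read against. The number of loci and peaks in other lists depended on the window. With the gene span alone, loci with C/EBPβ fell to 0 in MES, HB, HE and HP, ELK4 to 0 and GFI1B to 1, and peaks fell to 0 in the C/EBPβ lists of MES, HB, HE and HP, to 7 for HP PU.1, 25 for MAC C/EBPβ and 35 for MAC PU.1. With a flank of 5 kb, C/EBPβ was at 1 locus with 1 peak in HB, HE and HP, ELK4 was at 0 and GFI1B at 1. With 50 kb, loci were 3 for MES C/EBPβ, 4 for HP C/EBPβ, 2 for HP GATA1, 4 for HP GFI1B and 2 for MAC RUNX1. No share of all coding genes was taken at 50 kb, so these counts do not show more binding at the 8 genes than elsewhere. Peaks with 50 kb were 2, 4, 8 and 14 for C/EBPβ in MES, HB, HE and HP, 81 for MAC C/EBPβ and 119 for MAC PU.1. When a peak had to be nearest to the start site of one of the 8 genes, ELK4 was at 0 loci and HB C/EBPβ and HP GFI1B at 1, and without peaks at other start sites ELK4 was at 0. Without peaks at tRNA genes, an alternative chosen after seeing the data, C/EBPβ in MES, HB, HE and HP had 0 loci and 0 peaks. Without the Syk window, also chosen after seeing the data, HP PU.1 had 9 peaks.

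The share of HP PU.1 peaks found again in MAC was 100% for peaks over 2 kb from a coding start site, a rule that leaves out 10 of the 14 peaks. The share of HP C/EBPβ peaks found again was 100% with a flank of 5 kb, where 1 peak remained, and 35.7% with 50 kb. Looser letters raised the consensus share to 59.7% in MAC PU.1, 85.7% in HP PU.1 and 36.0% in MAC C/EBPβ. The share of MAC PU.1 peaks on C/EBPβ stayed between 35.8% and 45.8%. A count was taken to move when it changed by more than 1.5 times, and a share when it left its 95% interval. By these rules 50 values moved and 104 did not. A stricter peak threshold could not be tried, since peaks carry no score. No paired analysis was possible because each factor and stage had 1 list and no test was made. As depth was not used here and no replicate list was at hand, an absent peak cannot be told from a weak one.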
